A study of Homo sapiens with 9 samples.

Results

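The chemokines CXCL9, CXCL10 and CXCL11, which bind the receptor CXCR3, and the transcription factor IRF1 were followed in MG-63 cells on 3 titanium alloy surfaces. They are 4 of the 36385 gene rows of the count table, taken by gene name. The members were chosen by name with results of these data already known, and their measured levels on the 3 surfaces were among those results. Their levels and their differences between surfaces are therefore given as a description, with no test.

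MG-63, a human bone tumour line that often stands in for osteoblasts, is a single line whose cell type the labels give as osteosarcoma (epithelial-like). RNA was sequenced from 3 libraries on bare Ti6Al4V (bare alloy), 3 libraries on Ti6Al4V+TiB2 (TiB2) and 3 libraries on the boronized Ti6Al4V/HA composite (HA coating). All groups shared the line and an osteogenic induction medium for 7 days, with the glucocorticoid dexamethasone at 100 nM, ascorbic acid at 50 µg/mL and beta-glycerophosphate at 10 mM. The labels put all libraries in 1 batch, state that the TiB2 libraries did not enter the submitters' final analysis, and do not say whether libraries of a group came from separate cultures. The p-values below thus measure the spread between libraries, which may be technical. In these bulk samples, fewer cells of a kind and less RNA per cell cannot be told apart.

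CXCL9, CXCL10 and CXCL11 are small secreted proteins that attract activated T cells and natural killer cells carrying CXCR3, a G protein-coupled receptor. Their genes lie side by side and are classic targets of interferon-gamma, which acts through its receptor and the kinases JAK1 and JAK2. The signal induces IRF1, which binds interferon response elements. CXCL10 and CXCL11 also respond to type I interferon and, with NF-kB, to inflammatory cytokines, while CXCL9 depends more on interferon-gamma.

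The promoters are shown because the members differ in the interferon and NF-kB motifs they hold. CXCL9, CXCL10 and CXCL11 lie in that order on the minus strand of chromosome 4 (GRCh38), at 76001275 to 76007509, 76021118 to 76023497 and 76033682 to 76041415 in the deposited table. IRF1 lies on the minus strand of chromosome 5, at 132440440 to 132496467. The RefSeq promoter windows (GRCh38.p14, minus strand, 250 bases before the start to 50 after it) matched all 4 members and are printed 5′ to 3′ on the gene's own strand. Capitals mark matches, on either strand, to the interferon-stimulated response element core GAAANNGAAA, the interferon-gamma activated site TTCNNNGAA and the NF-kB consensus.
CXCL9, chr4:76007460-76007759: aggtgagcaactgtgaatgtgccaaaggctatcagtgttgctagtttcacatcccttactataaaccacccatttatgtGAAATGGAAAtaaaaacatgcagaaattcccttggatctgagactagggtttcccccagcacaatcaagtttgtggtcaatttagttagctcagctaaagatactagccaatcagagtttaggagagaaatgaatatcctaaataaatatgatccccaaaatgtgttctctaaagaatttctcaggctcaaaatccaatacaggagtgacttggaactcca
CXCL10, chr4:76023448-76023747: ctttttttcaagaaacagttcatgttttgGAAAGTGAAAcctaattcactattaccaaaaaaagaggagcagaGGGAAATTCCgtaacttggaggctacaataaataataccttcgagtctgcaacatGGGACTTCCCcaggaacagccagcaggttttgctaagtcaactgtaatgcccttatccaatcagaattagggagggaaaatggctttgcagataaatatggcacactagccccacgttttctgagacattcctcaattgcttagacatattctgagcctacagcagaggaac
CXCL11, chr4:76036021-76036320: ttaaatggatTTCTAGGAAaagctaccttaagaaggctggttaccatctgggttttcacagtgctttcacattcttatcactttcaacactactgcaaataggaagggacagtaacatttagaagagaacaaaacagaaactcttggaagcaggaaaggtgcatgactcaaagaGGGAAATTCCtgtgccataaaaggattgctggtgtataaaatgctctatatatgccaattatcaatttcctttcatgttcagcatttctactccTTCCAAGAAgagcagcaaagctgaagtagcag
IRF1, chr5:132490724-132491023: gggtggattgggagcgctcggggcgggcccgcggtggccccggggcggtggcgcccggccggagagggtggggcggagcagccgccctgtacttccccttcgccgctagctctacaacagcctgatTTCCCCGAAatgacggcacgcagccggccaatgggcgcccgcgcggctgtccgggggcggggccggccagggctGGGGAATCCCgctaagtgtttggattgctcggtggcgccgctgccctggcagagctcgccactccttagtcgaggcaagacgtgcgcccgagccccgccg

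The interferon-stimulated response element core was found 171 bases before the start of CXCL9 and 221 bases before that of CXCL10. Of 35116 RefSeq promoter windows of this length, 3.57% held it. The NF-kB consensus was found in CXCL10, 177 and 122 bases before the start, in CXCL11, 76 bases before it, and in IRF1, 50 bases before it, against 11.3% of all windows. The interferon-gamma activated site was found in CXCL11, 240 bases before and 18 bases past the start, and in IRF1, 124 bases before it, against 7.66% of all windows. CXCL10 held both the response element core and the NF-kB consensus, as did 0.276% of all windows. CXCL10 and CXCL11 shared the 10 bases GGGAAATTCC, one of the NF-kB matches, which 57 windows (0.162%) held on either strand; this was looked for after the sequences had been seen. An AP-1 match, TGANTCA, was found in CXCL11 at 87 bases before the start (7.71% of all windows), and TATAAA in CXCL9 at 191 and CXCL11 at 42 bases before it (11.5% of all windows). IRF1 had the most G and C in its window, 73.7% against 38.7% to 41.3% in the ligands. The deposited rows of CXCL9 and CXCL10 began at the RefSeq start, while those of CXCL11 and IRF1 began 5345 and 5694 bases before it, so the windows of these last genes cover only one of the possible starts. A match is a description of letters, not a measured binding site.

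The 9 libraries held 58464306 to 72542556 counts. A gene is compared across libraries in CPM, its counts over the TMM-scaled library total, and genes are compared with each other by the deposited FPKM, which divide by gene length. The 3 HA coating libraries differed more among themselves than those of the other groups: the median squared deviation between a pair, over that of Poisson sampling, was 11.9 to 13.5, against 3.61 to 5.29. The osteoblast and mesenchymal markers COL1A1, COL1A2, SPARC and VIM were abundant in every library, while SP7, BGLAP and IBSP, which mark later osteoblasts, were at or below 0.437 CPM. Beside this, 22 genes, CD3D, CD3E and LCK of T cells among them, had at most 3 counts in bare alloy replicate 1 and all 3 HA coating libraries and at least 20 in the other 5. The summed level of 15 T cell markers was 2.33 CPM in bare alloy replicate 1 and 15.8 and 12.4 in replicates 2 and 3, 18.2 to 20.2 in TiB2 and 3.99 to 6.65 in HA coating. It was thus lowest in bare alloy replicate 1 and next lowest in the HA coating libraries. CD3D, CD3E and LCK were at 0 in every HA coating library. Of 6 markers of this list tested in HA coating against bare alloy, IL7R rose and TRBC2 fell (edgeR adjusted p under 0.05). Of all genes 5.02% rose and 4.88% fell there. The part of the T cell markers in the results below was not tested beyond fits with bare alloy replicate 1 alone or left out. Summed NK cell markers were at most 1.65 CPM in any library. Summed monocyte and macrophage markers were at 80.9 to 89.1 CPM in bare alloy, 86.4 to 103 in TiB2 and 62.1 to 93.2 in HA coating, mostly CD68, with PTPRC, which marks all blood cells, at most 0.994 CPM. Summed endothelial markers were at 39.3 to 49.8, 24.6 to 28.9 and 30.8 to 33.2 CPM, and summed osteoblast and mesenchymal markers at 18487 to 20144, 9650 to 10104 and 6312 to 10525 CPM, in the same order.

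CXCL10 had the highest FPKM of the ligands in every library. Its level was 2.00, 1.45 and 1.23 CPM in bare alloy replicates 1, 2 and 3. It was 14.8, 4.53 and 13.6 CPM in TiB2 and 22.9, 52.6 and 175 CPM in HA coating. The groups did not overlap, and their order was bare alloy, TiB2, HA coating. The HA coating libraries spanned a 7.66-fold range, with replicate 3 far above the others, and TiB2 replicate 2 lay well below the other TiB2 libraries. Among all rows ordered by FPKM within a library, CXCL10 went from rank 10338 to 11930 on bare alloy to ranks 1949, 779 and 273 on HA coating. The fitted log2 difference was 5.72 ± 0.73 (SE, 3 against 3 libraries) for HA coating against bare alloy, 52.7-fold. It was 2.81 ± 0.41 for TiB2 against bare alloy, 7.00-fold, and 2.91 ± 0.68 for HA coating against TiB2, 7.52-fold. Without HA coating replicate 3 the first and the last fell to 4.59 and 1.77, and with bare alloy replicate 1 as the lone bare library the first was 5.38.

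CXCL11, the ligand known for the highest affinity for CXCR3, was measured at 0.638, 1.63 and 1.32 CPM in bare alloy replicates 1 to 3. It was at 4.97, 1.67 and 3.11 CPM in TiB2 and at 7.11, 19.2 and 55.5 CPM in HA coating. HA coating lay above both other groups, while TiB2 replicate 2 exceeded bare alloy replicate 2 by only 1.03-fold. The fitted log2 difference was 4.49 ± 0.72 for HA coating against bare alloy, 22.4-fold. It was 1.44 ± 0.44 for TiB2 against bare alloy, 2.71-fold, and 3.05 ± 0.66 for HA coating against TiB2, 8.28-fold. Without HA coating replicate 3 it was 3.45 against bare alloy and 2.00 against TiB2. With bare alloy replicate 1, the lowest library, as the lone bare library the first was 5.41. Without TiB2 replicate 1 the difference of TiB2 from bare alloy was 1.00.

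CXCL9 was close to the limit of detection except on HA coating. The counts were 0, 0 and 4 in bare alloy, 0, 4 and 4 in TiB2, and 75, 180 and 731 in HA coating. In HA coating this was 1.20, 2.80 and 11.1 CPM, again lowest in replicate 1 and highest in replicate 3. Summed over a group, 4 counts gave 0.0220 CPM of the raw totals (95% Poisson interval 0.00600 to 0.0564) in bare alloy and 8 counts gave 0.0422 (0.0182 to 0.0832) in TiB2. In HA coating 986 counts gave 5.08 CPM (4.77 to 5.41). These intervals cover counting error only. The gene passed the filter on low counts only through HA coating, so it was not fitted in TiB2 against bare alloy. Its fitted log2 difference, 7.67 ± 1.18 against bare alloy and 6.83 ± 1.01 against TiB2, depends on the prior count of the fit. It was 11.27 without bare alloy replicate 3, which held all 4 counts of that group, and 6.37 without HA coating replicate 3.

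IRF1 differed less between surfaces than the ligands. Its level was 51.4, 46.5 and 50.7 CPM in bare alloy, 61.3, 52.5 and 59.4 CPM in TiB2 and 67.9, 59.8 and 76.5 CPM in HA coating. Bare alloy lay below both other groups without overlap, and TiB2 and HA coating overlapped. The fitted log2 difference was 0.45 ± 0.15 for HA coating against bare alloy (1.37-fold), 0.22 ± 0.08 for TiB2 against bare alloy (1.16-fold) and 0.23 ± 0.16 for HA coating against TiB2. The row is uncertain because it spans 56028 bases and overlaps genes on the other strand, and strand use in counting is not given in the sources used here. The antisense gene IRF1-AS1 was at 33.3, 37.2 and 32.3 CPM in bare alloy, 18.8, 17.7 and 23.6 in TiB2 and 23.0, 24.3 and 17.9 in HA coating. It was lower on both surfaces than on bare alloy, where IRF1 was lowest, and its TiB2 and HA coating libraries overlapped. An unnamed gene across the same region ranged from 0 to 2179 counts within bare alloy alone. The row ART3, opposite CXCL10 and CXCL11, held 0 to 4 counts.

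**Figure D1:**
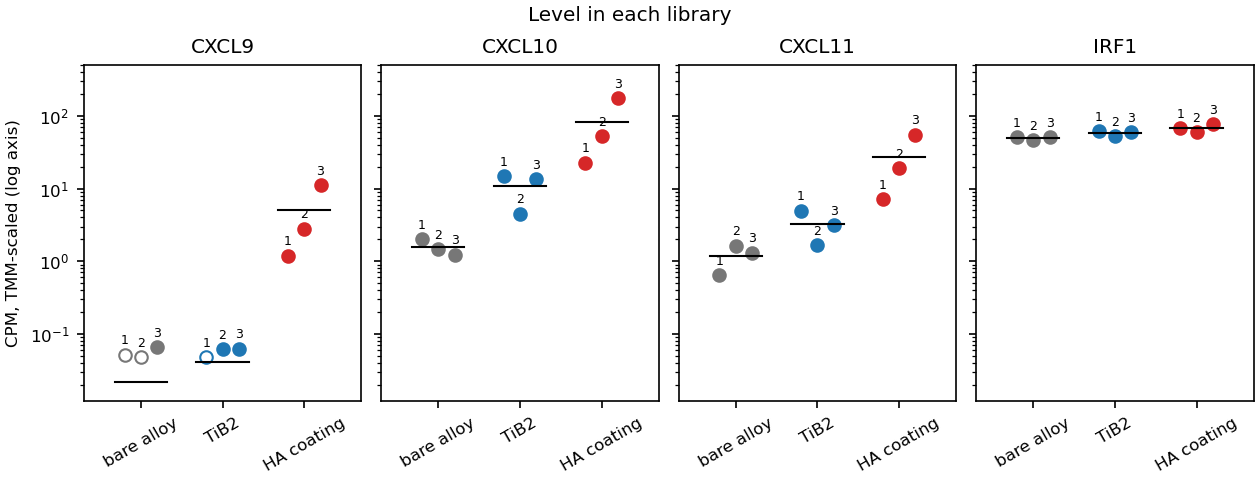
Level of CXCL9, CXCL10, CXCL11 and IRF1 in each library, in CPM on a log axis. Points are libraries numbered by replicate, bars are group means, and open points are libraries with 0 counts, drawn at the level of 3 counts; on HA coating the ligands are lowest in replicate 1 and highest in replicate 3, and IRF1 lies between 46.5 and 76.5 CPM.

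The members' calls are given beside the share of all genes, and nothing is read from them because the choice used these contrasts. A gene was called where edgeR's quasi-likelihood test gave a Benjamini-Hochberg adjusted p under 0.05. In HA coating against bare alloy 5.02% of 20117 genes tested were called up and 4.88% down, and CXCL9, CXCL10 and CXCL11 were among those called up. In TiB2 against bare alloy 12.9% of 20152 were called up and 12.2% down, and CXCL10 and CXCL11 were among those called up. In HA coating against TiB2 0.179% of 20086 were called up and 0.453% down, with CXCL9 called up and CXCL10 and CXCL11 not called. IRF1 was called in none of the 3 comparisons. Every library of the first group exceeded every library of the second in 17.1%, 20.9% and 8.54% of genes in the same order of comparisons, and all members tested did so except IRF1 in the last. An order of HA coating above TiB2 above bare alloy without overlap held in 1.28% of 21213 genes, CXCL10 and CXCL11 among them. The comparisons with bare alloy share its 3 libraries.

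**Figure D2:**
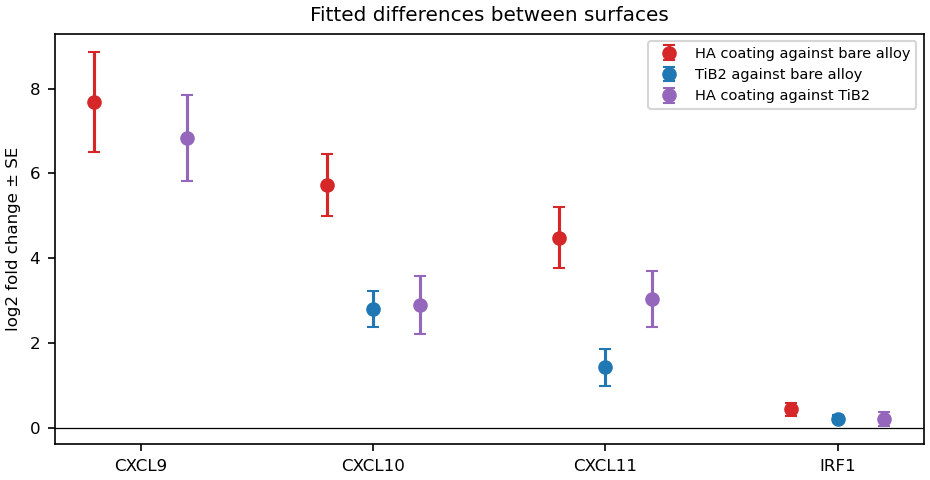
Fitted log2 fold change of each member in the 3 comparisons. Points are edgeR estimates with bars of 1 SE, from 3 against 3 libraries; CXCL9 has no point for TiB2 against bare alloy, CXCL10 sits at 5.72, 2.81 and 2.91, and IRF1 lies between 0.22 and 0.45.

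Within HA coating and within TiB2 the shares of CXCL10 and CXCL11 in the ligand RNA varied less than its amount. The summed FPKM of CXCL9, CXCL10 and CXCL11 was 1.79, 2.07 and 1.76 in bare alloy, 14.7, 4.71 and 12.9 in TiB2 and 23.4, 56.6 and 159 in HA coating. CXCL10 made up 79.2% to 81.5% of that sum in the HA coating libraries and 80.1% to 86.7% in TiB2. CXCL11 made up 16.7% to 19.0% of it in HA coating, and CXCL9 made up 1.79% to 2.17%, against at most 0.418% in TiB2. In bare alloy the CXCL10 share was 82.6% in replicate 1 and 57.6% and 57.8% in replicates 2 and 3. CXCL10 rested there on 110 counts in replicate 1 and 75 to 93 in replicates 2 and 3, and CXCL11 on 35 counts in replicate 1 and 80 to 104 in replicates 2 and 3. The ratio of CXCL10 to CXCL11 in FPKM was 4.88, 4.16 and 4.79 in HA coating replicates 1, 2 and 3, although their summed level differed several-fold. The ligand sum over the FPKM of IRF1 was 0.438 to 0.566 in bare alloy, 1.12 to 3.08 in TiB2 and 4.33, 11.6 and 29.6 in HA coating. The deposited FPKM divided IRF1 by a length 10.5 times that used for CXCL10, so this last ratio depends on the gene model as well.

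**Figure D3:**
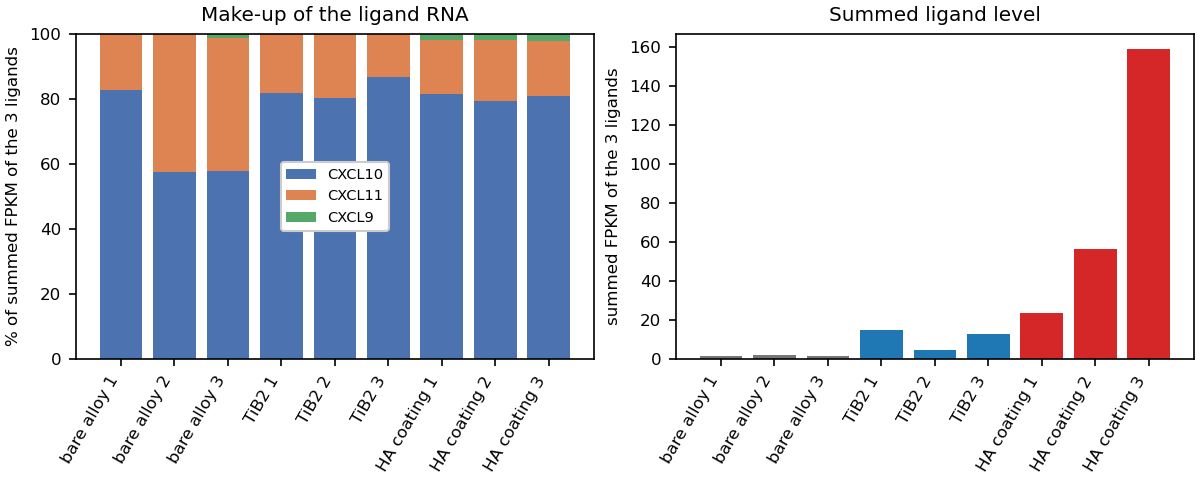
Left, share of CXCL10, CXCL11 and CXCL9 in their summed FPKM per library, in percent; right, that summed FPKM. Each bar is 1 library; the shares on HA coating stay within 79.2% to 81.5% for CXCL10 while the sum runs from 23.4 to 159.

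The ligands varied far more among the HA coating libraries than most genes. The SD of log2(CPM + 0.5) over those 3 libraries was 1.41 for CXCL9, 1.46 for CXCL10 and 1.44 for CXCL11, against a median of 0.299 over 20117 genes. At most 0.263% of genes had an SD as large as that of any of these ligands. IRF1 had an SD of 0.177, and 79.0% of genes had one at least as large. In TiB2 the SD was 0.893 for CXCL10 and 0.669 for CXCL11, against a median of 0.149. All 3 ligands were lowest in HA coating replicate 1 and highest in replicate 3. This order held in 22.6% of all genes, in 40.5% of those called up against bare alloy, and in 14 of 30 interferon-gamma and IRF1 targets. Of the antiviral interferon-stimulated genes it held in 11 of 30, and 18 were highest in HA coating replicate 2.

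On the receiving side, CXCR3 RNA was at most 0.112 CPM in any library and was not tested. PF4, another CXCR3 ligand known from platelets, reached at most 0.358 CPM. Its near-identical relative PF4V1 was at 0, 0.0626 and 0.115 CPM in bare alloy and 0.978, 0.989 and 0.451 in TiB2. In HA coating it was at 2.60, 2.27 and 3.93 CPM. The groups did not overlap, and this order without overlap held in 1.28% of 21213 genes. PF4V1 had 0, 4 and 7 counts in bare alloy and passed the filter on low counts only through the other groups, so no p is given. Reads may be split between this pair, and how multi-mapped reads were counted is not given in the sources used here. DPP4, the surface protease that clips and inactivates the CXCR3 ligands, was at 5.41, 3.75 and 2.39 CPM in bare alloy, 18.1, 12.9 and 17.9 in TiB2 and 10.5, 13.2 and 11.6 in HA coating. It rose on both, by 1.60 ± 0.30 (edgeR adjusted p = 0.013) on HA coating and 2.08 ± 0.27 on TiB2, but lost the first call without bare alloy replicate 2 or HA coating replicate 2, where the adjusted p reached 0.062. ACKR3, a scavenging receptor for CXCL11 and CXCL12, fell on HA coating by 0.74 on the log2 scale (edgeR adjusted p = 0.043, lost without any 1 bare alloy library or HA coating replicate 2, up to 0.16) and on TiB2 by 0.52. In all, 2 of the 4 genes tested in this list rose and 1 fell against bare alloy on each surface. The shares of all genes were 5.02% up and 4.88% down on HA coating and 12.9% and 12.2% on TiB2. The risers were DPP4 and PF4V1, and nothing is read from the call of PF4V1. On HA coating PF4V1 alone rose without bare alloy replicate 2 or HA coating replicate 2, and on TiB2 2 fell without TiB2 replicate 3.

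Of the 3 interferon genes tested, 1 rose on HA coating, IFNE, against 5.02% of all genes. None passed the test on TiB2 (12.9% of all genes rose and 12.2% fell) or in HA coating against TiB2 (0.179% and 0.453%). At an unadjusted p under 0.05 edgeR gave 2 rises on HA coating, none on TiB2 and 2 in HA coating against TiB2, and DESeq2 with adjustment gave 1, 0 and 0. IFNB1, the type I interferon made by many cell types, was at 0.146 to 0.444 CPM in bare alloy, 0.0623 to 0.442 in TiB2 and 0.494, 0.810 and 1.13 in HA coating. The groups of HA coating and bare alloy did not overlap, and HA coating lay above bare alloy in this way in 17.1% of 20117 genes. The difference of 1.39 ± 0.56 did not pass the test (edgeR adjusted p = 0.15). IFNE, an epithelial type I interferon, was at 8.86 to 11.5 CPM in bare alloy and 16.5, 28.6 and 16.0 in HA coating, and rose by 0.96 ± 0.26 (edgeR adjusted p = 0.047). This call was lost without any 1 bare alloy library or HA coating replicate 2, at adjusted p up to 0.20. IFNG was not analysed here.

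Of 13 receptors and signalling genes of the pathway, 1 rose and 1 fell on HA coating (5.02% and 4.88% of all genes), and 1 rose and 3 fell on TiB2 (12.9% and 12.2%), against bare alloy, with 2 rises on TiB2 without bare alloy replicate 3. The riser was IFNAR2, a subunit of the type I interferon receptor, by 0.93 ± 0.17 on HA coating (edgeR adjusted p = 0.013) and 1.04 ± 0.18 on TiB2 (adjusted p = 0.0026). JAK1 fell on HA coating by 0.61 on the log2 scale (edgeR adjusted p = 0.044). The first IFNAR2 call was lost without bare alloy replicate 1 or 3 (adjusted p up to 0.094), and that of JAK1 without any 1 bare alloy library or HA coating replicate 2 (up to 0.19). STAT2 (-0.64 ± 0.09) and IRF9 (-0.59 ± 0.12), which act together downstream of type I interferon, fell on TiB2 (edgeR adjusted p of 0.00079 and 0.0054).

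Among 10 feedback inhibitors, 3 rose on HA coating (5.02% of all genes) and 5 rose and 2 fell on TiB2 (12.9% and 12.2%). USP18, which blocks type I interferon signalling at its receptor, fell on TiB2 by 0.94 on the log2 scale (edgeR adjusted p = 0.00085). SOCS3 and SOCS2, suppressors of cytokine signalling, and the phosphatase PTPN2 rose on both, by 1.31 ± 0.24, 0.99 ± 0.19 and 1.00 ± 0.22 on HA coating (edgeR adjusted p of 0.011, 0.015 and 0.024). All 3 calls on HA coating were lost in at least 2 of the 6 fits without 1 library, at adjusted p up to 0.065, 0.087 and 0.12, and bare alloy replicates 1 and 2 were among the libraries in each case. The count of 3 was 0, 0 and 1 without bare alloy replicates 1, 2 and 3. SOCS1, the direct inhibitor of interferon-gamma signalling, was at 0.656 to 1.88 CPM in bare alloy, 4.47 to 5.49 in TiB2 and 0.452 to 1.97 in HA coating. It rose on TiB2 by 1.80 ± 0.34 (edgeR adjusted p = 0.0043) and had a difference of -0.07 ± 0.56 on HA coating (adjusted p = 0.95). The difference between HA coating and TiB2 was -1.88 ± 0.44 and did not pass the test (adjusted p = 0.12). The list of other interferon regulatory factors also holds IRF2-binding proteins, IRF2BPL among them. Of its 8 genes tested, none passed the test on HA coating, while 4 rose and 2 fell on TiB2. At an unadjusted p under 0.05, edgeR gave 1 rise and 1 fall on HA coating, and DESeq2 with adjustment gave 1 rise. The shares of all genes on TiB2 were 12.9% and 12.2%. IRF2, a repressor of IRF1 targets that is in both lists, rose on TiB2 by 0.31 ± 0.09 (edgeR adjusted p = 0.030, lost in all fits without 1 library but that without bare alloy replicate 1, up to 0.10). IRF5 (0.98 ± 0.27) and IRF2BPL (0.51 ± 0.14) rose and IRF7 (-0.68 ± 0.14) and IRF9 fell on TiB2. IRF9 is also counted among the receptors and signalling genes, and ISG15 among both the feedback inhibitors and the antiviral genes. The calls of IRF5 and IRF2BPL were lost in 4 and 3 of the 6 fits without 1 library, TiB2 replicates 1 and 2 among those left out in both, at adjusted p up to 0.085 and 0.087. The count of 4 was 1 without bare alloy replicate 2 or any 1 TiB2 library, and 2 without bare alloy replicate 3.

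Of 30 other interferon-gamma and IRF1 targets, 7 rose and none fell on HA coating, against 5.02% and 4.88% of all genes, with a median log2 difference of 0.34 against 0.02 over all genes. At an unadjusted p under 0.05 edgeR gave 11 and 2, and DESeq2 with adjustment 9 and 2. Without HA coating replicate 1 or 3 edgeR gave 1 fall. On TiB2, 6 rose and 9 fell, against 12.9% and 12.2% of all genes, with a median of -0.11; the 6 were 2 without bare alloy replicate 3, TiB2 replicate 1 or TiB2 replicate 3. GBP5, a guanylate-binding protein, was at 86.6 to 97.3 CPM in bare alloy, 99.6 to 159 in TiB2 and 175, 291 and 278 in HA coating, and rose on HA coating by 1.40 ± 0.21 (edgeR adjusted p = 0.0054, at most 0.039 without 1 library). ICAM1, an adhesion molecule also induced by NF-kB, rose by 1.64 ± 0.28 on HA coating (adjusted p = 0.0090, lost without bare alloy replicate 2 or 3, up to 0.053) and by 2.13 ± 0.16 on TiB2. IDO1, which breaks down tryptophan, was at 2.77, 3.05 and 3.08 CPM in bare alloy, 1.36, 0.463 and 1.54 in TiB2 and 5.22, 10.6 and 53.7 in HA coating. It rose on HA coating by 2.94 ± 0.73 (edgeR adjusted p = 0.038) and fell on TiB2 by 1.40 on the log2 scale (adjusted p = 0.025). The difference of HA coating from TiB2, 4.35 ± 0.83, did not pass the test (adjusted p = 0.059).

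CD274, which encodes PD-L1, was at 0.790 to 1.38 CPM in bare alloy, 0.958 to 1.15 in TiB2 and 1.87 to 2.84 in HA coating, and rose on HA coating by 1.26 ± 0.34 (edgeR adjusted p = 0.047). CD74, the invariant chain of class II antigen presentation, fell on TiB2 by 2.60 on the log2 scale (edgeR adjusted p = 0.00027), and was higher on HA coating than on TiB2 by 2.35 ± 0.34 (adjusted p = 0.014). GBP2 rose on TiB2 by 0.64 ± 0.18 (edgeR adjusted p = 0.026), a call lost without bare alloy replicate 2 or 3 or TiB2 replicate 1 or 3 (up to 0.10). GBP1 (0.52 ± 0.19) and TAP1 (0.36 ± 0.18) did not pass the test on HA coating. The calls on HA coating of IDO1 and CD274 were lost without any 1 bare alloy library and without HA coating replicate 2, and that of CD274 also without HA coating replicate 3, at adjusted p up to 0.13 and 0.19. IDO1 on TiB2 lost its call without bare alloy replicate 2 or 3 (up to 0.074), and CD74 between HA coating and TiB2 without any 1 TiB2 library (up to 0.088). The count of 7 risers was 2, 1 and 1 without bare alloy replicates 1, 2 and 3, and 13, 3 and 4 without HA coating replicates 1, 2 and 3. With bare alloy replicate 1 as the lone bare library it was 0 in edgeR, with 5 at an unadjusted p under 0.05, and DESeq2 on all 6 libraries gave 9. Between HA coating and TiB2, CD74 was the 1 gene of this list called, against 9 without HA coating replicate 1 and 0 without any 1 TiB2 library.

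**Figure D4:**
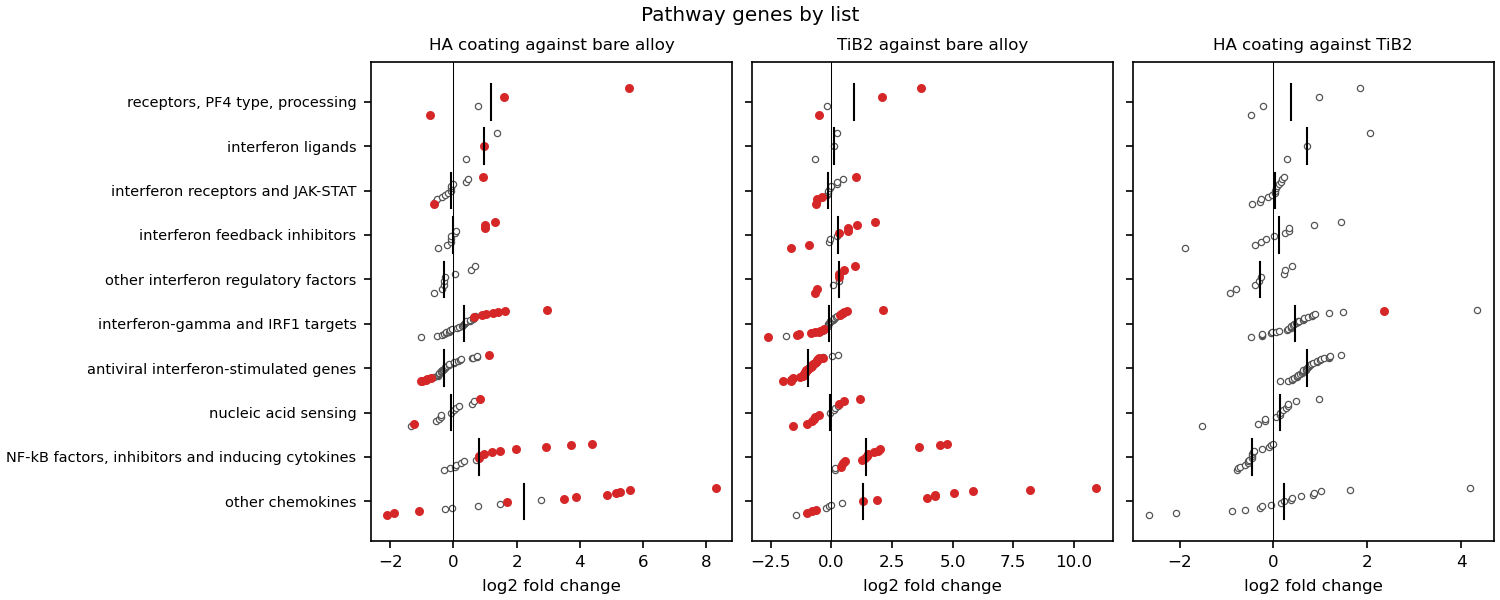
Log2 fold change of each pathway gene by list in the 3 comparisons. Each point is a gene, filled red where the edgeR adjusted p was under 0.05 and open otherwise, and black bars are list medians; on TiB2 27 of 30 antiviral genes lie below 0 and filled, and on HA coating 5.

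The antiviral interferon-stimulated genes differed most on TiB2. There, where CXCL10 stood 7.00-fold above bare alloy, 27 of 30 fell and none rose, in edgeR and DESeq2 alike and at an unadjusted p under 0.05, with a median log2 difference of -0.95 against 0.00 over all genes, and 12.2% of all genes were called down. Leaving out 1 library gave 23 to 27. On HA coating 5 fell and 1 rose, against 4.88% and 5.02% of all genes, with a median of -0.28 against 0.02 over all genes. ISG15, a ubiquitin-like protein, was at 310, 288 and 273 CPM in bare alloy, 90.3, 72.7 and 114 in TiB2 and 164, 230 and 364 in HA coating. It fell on TiB2 by 1.66 on the log2 scale (edgeR adjusted p = 5.5e-05) and had a difference of -0.22 ± 0.26 on HA coating (adjusted p = 0.64). IFIT1, which binds viral RNA, was at 721 to 834 CPM in bare alloy, 391 to 603 in TiB2 and 753, 1465 and 1434 in HA coating. It fell on TiB2 by 0.58 on the log2 scale (edgeR adjusted p = 0.018, 0.065 without bare alloy replicate 2) and did not pass the test on HA coating (0.63 ± 0.26, adjusted p = 0.16).

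HERC6, of the HERC ligase family, fell on both surfaces, by 1.03 on the log2 scale on HA coating (edgeR adjusted p = 0.0054) and by 1.66 on TiB2. HERC5, also in this list, was called on neither surface. IFI44L and OAS2 also fell on both, by 0.99 and 0.87 on HA coating (edgeR adjusted p of 0.043 and 0.017) and by 1.98 and 1.00 on TiB2. ISG20, an exonuclease, rose on HA coating by 1.11 ± 0.26 (edgeR adjusted p = 0.029). The calls on HA coating of IFI44L, OAS2 and ISG20 were lost in 5, 3 and 4 of the 6 fits without 1 library, at adjusted p up to 0.17, 0.087 and 0.13, bare alloy replicates 2 and 3 among them in each case. The 5 falls on HA coating were 2, 1 and 1 without bare alloy replicates 1, 2 and 3 and 5, 3 and 6 without HA coating replicates 1, 2 and 3. The 1 rise was 5 without HA coating replicate 1 and 0 without bare alloy replicate 2 or 3 or HA coating replicate 2 or 3. Between HA coating and TiB2 all 30 antiviral genes were higher on HA coating, with a median of 0.71, but none passed edgeR's adjusted test. At an unadjusted p under 0.05 edgeR gave 24, and DESeq2 with adjustment gave 11. Without HA coating replicate 1 edgeR gave 14, and 0 without any other library. Over all 141 pathway genes tested in that comparison 1 rose, CD74, and none fell, against 46 and 15 at an unadjusted p under 0.05 in edgeR and 19 and 4 in DESeq2.

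Of 13 genes of nucleic acid sensing, 1 rose and 1 fell on HA coating (5.02% and 4.88% of all genes), and 3 rose and 6 fell on TiB2 (12.9% and 12.2%). On HA coating the rise was lost without any 1 bare alloy library or HA coating replicate 2, and the fall without bare alloy replicate 2, while 2 rose without HA coating replicate 1 and 2 fell without replicate 2 or 3. The 3 risers on TiB2 were 1 without bare alloy replicate 3 or TiB2 replicate 3. TLR4, the endotoxin receptor, fell on both, by 1.26 on the log2 scale on HA coating (edgeR adjusted p = 0.0090, 0.058 without bare alloy replicate 2) and by 1.57 on TiB2. TLR3, a receptor for double-stranded RNA, fell on TiB2 by 1.02 (edgeR adjusted p = 0.00078). CGAS, a sensor of cytosolic DNA, rose on TiB2 by 0.52 ± 0.13 (edgeR adjusted p = 0.017, lost without bare alloy replicate 3 or TiB2 replicate 3, up to 0.065). The kinase IKBKE rose on both, by 0.84 ± 0.20 on HA coating (edgeR adjusted p = 0.034, lost without any 1 bare alloy library or HA coating replicate 2, up to 0.15) and 1.16 ± 0.13 on TiB2.

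Of 16 NF-kB factors, inhibitors and inducing cytokines, 9 rose on HA coating (5.02% of all genes) and 13 on TiB2 (12.9%) and none fell, also at an unadjusted p under 0.05 or in DESeq2, with medians of 0.81 and 1.44. IL1B was at 3.47 to 5.16 CPM in bare alloy, 151, 58.6 and 149 in TiB2 and 50.3, 80.7 and 143 in HA coating. It rose by 4.38 ± 0.38 on HA coating (edgeR adjusted p = 0.00049) and 4.78 ± 0.36 on TiB2 (adjusted p = 2.4e-05). IL6 rose by 3.72 ± 0.29 and 4.47 ± 0.30 and IL1A by 2.92 ± 0.39 and 3.62 ± 0.47 on HA coating and TiB2. NFKBIA, the inhibitor that NF-kB itself induces, rose by 0.97 ± 0.22 on HA coating (edgeR adjusted p = 0.027, up to 0.13 without any 1 bare alloy library) and by 1.50 ± 0.11 on TiB2. RELA, an NF-kB subunit, did not pass the test on either surface (0.05 ± 0.19 and 0.14 ± 0.09). The 9 risers on HA coating were 5, 5 and 6 without bare alloy replicates 1, 2 and 3. Between HA coating and TiB2 none of the 16 passed the adjusted test of edgeR or DESeq2, and 7 were lower on HA coating at an unadjusted p under 0.05 in edgeR. Without HA coating replicate 1 edgeR's adjusted test gave 2, and against bare alloy 1 fell on HA coating.

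Of the other chemokines tested, 8 of 16 rose and 3 fell on HA coating, and 9 of 17 rose and 3 fell on TiB2, against 5.02% up and 4.88% down and 12.9% up and 12.2% down of all genes. Among the risers CCL20, which attracts immature dendritic cells, was at 0 in bare alloy, 4.59, 1.58 and 5.68 CPM in TiB2 and 0.383, 0.576 and 0.938 in HA coating. The eotaxin CCL11 was at 0 in bare alloy, 0.742, 0.463 and 0.545 CPM in TiB2 and 0.128, 0.748 and 0.272 in HA coating. Both passed the filter on low counts only through the groups where they are high, so no p is given. The counts of rises above hold CCL20 on both surfaces and CCL11 on TiB2, and nothing is read from these calls. CX3CL1, the ligand of CX3CR1, was at 0.437, 1.00 and 1.02 CPM in bare alloy and 0.191, 0.265 and 0.121 in HA coating. In that comparison it passed the filter on low counts only through bare alloy, where it is high, so no p is given. The count of falls on HA coating holds CX3CL1. Nothing is read from its call, which was lost without any 1 library. The 3 falls on HA coating were 1 without bare alloy replicate 1 or 3 or HA coating replicate 2. CXCL8, which attracts neutrophils, was at 4.61, 5.74 and 5.22 CPM in bare alloy, 377, 140 and 373 in TiB2 and 162, 240 and 355 in HA coating. It rose by 5.59 ± 0.31 on HA coating (edgeR adjusted p = 5.2e-05) and 5.83 ± 0.38 on TiB2 (adjusted p = 1.1e-05). The summed FPKM of the neutrophil-attracting CXCL1, CXCL2, CXCL3, CXCL5, CXCL6 and CXCL8 was 4.65 to 5.77 in bare alloy, 91.4 to 231 in TiB2 and 173 to 227 in HA coating. That sum overlapped between TiB2 and HA coating, and the CXCR3 ligand sum, at most 14.7 in TiB2 and at least 23.4 in HA coating, did not. Of the neutrophil-attracting genes, CXCL1, CXCL5 and CXCL6 did not overlap either: CXCL1 was at most 57.4 CPM in TiB2 and at least 67.3 in HA coating. Every HA coating library exceeded every TiB2 library in 8.54% of 20086 genes. CXCL1 and CXCL6 did not pass the test between these groups (edgeR adjusted p of 0.34 and 0.39). CXCL12, the ligand of CXCR4 and ACKR3, fell by 1.88 on the log2 scale on HA coating (edgeR adjusted p = 0.0029) and by 1.01 on TiB2. CXCL16 fell on both as well, by 1.09 on the log2 scale on HA coating (edgeR adjusted p = 0.020, lost without bare alloy replicate 1 or 3 or HA coating replicate 2, up to 0.082) and by 0.80 on TiB2. TiB2 replicate 2, lowest of its group for CXCL10 and CXCL11, was also lowest for CXCL8, IL1B and IL6.

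Genes with profiles most like the ligands were found by the root mean square difference of centred log2(CPM + 0.5) over the 9 libraries, among 13764 genes with a mean of at least 1 CPM. The measure is a description, and its points share libraries. Nearest to CXCL10 was the collagenase MMP1 at 0.35, ahead of CXCL11 (0.70), CXCL1 (0.98), TNFRSF11B (1.09), CXCL9 (1.11) and CXCL6 (1.12). MMP1 was at 3.79, 2.80 and 3.14 CPM in bare alloy, 19.4, 9.78 and 17.2 in TiB2 and 52.2, 65.1 and 205 in HA coating. It had the same high library, HA coating replicate 3, and the same low TiB2 library, replicate 2. TNFRSF11B encodes osteoprotegerin, the decoy receptor that restrains osteoclast formation.

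Nearest to CXCL11 were CXCL9 (0.61), MMP1 (0.62), CXCL10 (0.70), ACOD1 (0.78), PF4V1 (0.87) and GK (0.89). Nearest to CXCL9 were ACOD1 (0.44), IDO1 (0.61) and CXCL11 (0.61). ACOD1, the itaconate-making enzyme of activated macrophages, was at 0 in all 6 libraries of bare alloy and TiB2 and at 0.191, 1.17 and 9.44 CPM in HA coating. Nearest to IRF1 were PACC1, WDR77 and RPS6KB2, all at 0.07. The ligands were at 1.37 for CXCL9, 1.53 for CXCL11 and 1.96 for CXCL10 from it. The measure keeps the size of each change. A gene that differed as little as IRF1 thus cannot lie near the ligands, whatever its order over the libraries.

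**Figure D5:**
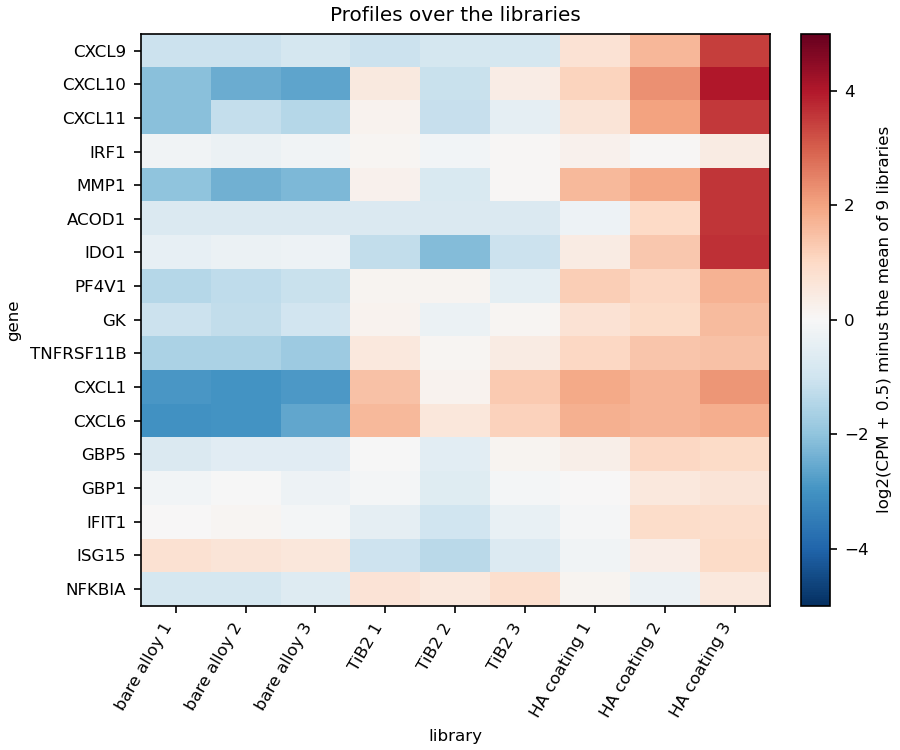
Profiles of the members, of genes near the ligands by likeness and of example pathway genes over the 9 libraries. Colour is log2(CPM + 0.5) minus the gene's mean over the libraries; the ligands, MMP1, ACOD1 and IDO1 are highest in HA coating replicate 3, and ISG15 is lowest in TiB2 replicate 2.

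Within 300 kb of CXCL10 lay 12 other named rows, of which 8 were tested against bare alloy. On each surface 1 fell and none rose, against 4.88% and 5.02% of all genes on HA coating and 12.2% and 12.9% on TiB2. At an unadjusted p under 0.05 edgeR gave no rise on HA coating and 1 on TiB2, as did DESeq2 with adjustment. Falls were 1 on HA coating and 2 on TiB2, in both ways of calling. STBD1, a glycogen-binding protein, had a difference of 0.68 on TiB2 (edgeR adjusted p = 0.066) and was called up without bare alloy replicate 3 or TiB2 replicate 1 (down to 0.036), and NUP54 was called up on HA coating without HA coating replicate 1 (0.045). The other tested neighbours, G3BP2, USO1, SCARB2 and FAM47E-STBD1, had differences between -0.30 and 0.42 on HA coating. They were not called by edgeR's adjusted test on either surface against bare alloy. The lysosomal amidase gene NAAA, 80105 bases away, fell by 1.09 on the log2 scale on HA coating (edgeR adjusted p = 0.014, up to 0.070 without 1 bare alloy library) and by 0.65 on TiB2 (adjusted p = 0.0061). SDAD1, between NAAA and CXCL9, had a difference of 0.29 ± 0.17 on HA coating, and NUP54, beyond CXCL11, of 0.33 ± 0.18, and neither passed the test (edgeR adjusted p of 0.30 and 0.27).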

How the data were processed

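RNA of MG-63 cells was sequenced from 9 libraries, 3 on each surface, and groups came from the sample labels. The authors deposited raw counts and FPKM per gene and library in a single table. The submitters' processing notes name the GRCh38 build, featureCounts 2.0.1, HISAT2 2.2.1, StringTie 2.1.4, cutadapt 2.10 and limma. The step of each tool, the use of strand and the handling of multi-mapped reads are not stated there. Antisense, overlapping and near-identical genes are therefore uncertain. Even numbers made up 55.5% of deposited counts from 1 to 20.

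Each comparison used its own 6 libraries: edgeR 4.0.16 in R 4.3.3, filterByExpr, TMM scaling and the quasi-likelihood test, two-sided, with Benjamini-Hochberg adjustment over all genes tested and a threshold of 0.05. The SE is the log2 fold change divided by the square root of F. The fit was tested on simulated counts. Other fits used limma 3.58.1 on log2(FPKM + 1) and log2(FPKM + 0.1), DESeq2 1.42.0, other filters, a replicate block, all 9 libraries and each library left out. Tables used matplotlib 3.10.9, scipy 1.17.1, numpy 2.4.6, pandas 2.3.3, Python 3.11.15 and data.table (1.17.8).

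The members, the 10 pathway lists and the 5 marker lists were chosen with earlier results of these data known. Named genes were a fixed set, at most 3 of the largest rises and 3 falls per list in HA coating against bare alloy and at most 2 of each in the other comparisons, the nearest profiles and the neighbours within 300 kb. Of the fixed set, 1 gene is not reported here. RIGI was matched by gene ID. ACKR1, IFNG, IFNK, CCL4, CCL13, CD8B, GZMB and TYROBP were not analysed here. Totals of at least 58464306 counts put the level of 3 counts at 0.0414 to 0.0513 CPM.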

Additional observations from a re-analysis of the deposited data

How the results depend on the processing

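Every named gene and member kept its direction wherever it had been called; over 199 gene and comparison pairs, 2383 values under other settings stayed on their side of the threshold, 203 lost a call and 65 gained one. For HA coating against bare alloy (1009 genes up, 981 down) no filter on low counts gave 543 and 550, all 9 libraries in 1 fit 1860 and 1658, DESeq2 1875 and 1687, and bare alloy replicate 1 as the lone bare library, chosen after seeing the data, 107 and 179. Leaving out 1 library gave 274 to 2282 up and 322 to 1903 down. Interferon-gamma targets called up (7) were 2 with no filter, 3 and 4 with limma on log2(FPKM + 1) and log2(FPKM + 0.1), 0 with the lone library and 1 to 13 with 1 left out. Antiviral genes called down (5) were 2 with no filter, 2 with limma on log2(FPKM + 0.1), 0 with the lone library and 1 to 6 with 1 left out, and NF-kB genes called up (9) were 4 and 5 to 9 in the last 2 settings. TiB2 against bare alloy (2594 up, 2465 down) gave 1016 and 1116 with all 9 libraries in 1 fit. HA coating against TiB2 (36 up, 91 down) gave 12 and 23 with no filter, 177 and 324 with DESeq2, 12 and 37 with limma on log2(FPKM + 1), 39 down with all 9 libraries, and 11 to 560 up and 35 to 664 down with 1 left out. The cause was not tested.

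The members' log2 differences with limma on log2(FPKM + 1), which compresses low levels, were 1.21 for CXCL9, 4.47 for CXCL10 and 2.86 for CXCL11 in HA coating against bare alloy, 2.04 for CXCL10 and 0.72 for CXCL11 in TiB2 against bare alloy, and 1.20 for CXCL9 in HA coating against TiB2. With log2(FPKM + 0.1) CXCL9 had 3.57 and 3.49, and with the lone bare library 11.26. With 1 library left out CXCL9 ran from 6.37 to 11.27 and CXCL10 from 4.59 to 6.18 against bare alloy, and CXCL9 from 5.51 to 7.29 against TiB2. Shares of counts in place of FPKM, which divide by no length, were 4.06% for CXCL9, 72.1% for CXCL10 and 23.8% for CXCL11 in HA coating and 0.453% for CXCL9 and 76.1% for CXCL10 in TiB2. The deviations of same-numbered libraries correlated at -0.05, 0.16 and -0.11 in HA coating against bare alloy. Differently numbered libraries correlated there at -0.15 to 0.22. With 3 libraries per group these values cannot settle whether the numbers pair the libraries. With the replicate block the genes called up were 637 in HA coating against bare alloy and 59 in HA coating against TiB2. Interferon-gamma targets called up were 3 in the first.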
